A study of Mus musculus with 60 samples.

Results

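The 9 genes described here encode the enzymes that write and erase methyl groups on lysine 4 of histone H3 (H3K4): the methyltransferases Kmt2a, Kmt2b, Kmt2c, Kmt2d, Setd1a and Setd1b, and the demethylases Kdm5a, Kdm5b and Kdm1a. They were taken by symbol from a table of 27238 genes, and all 9 were found in it. The mouse study compared somatic cell nuclear transfer (NT) embryos with fertilised embryos by RNA-seq of single embryos, sampled from the pronuclear (1-cell) stage through the 2-cell, 4-cell and 8-cell stages to the morula and the blastula. There were 3 kinds of embryo and 2 kinds of donor cell, which gave 20 groups of 3 libraries. In vivo embryos came from C57BL/6 females mated with DBA2 males. NTC embryos were made by placing the nucleus of a cumulus cell (CC), the somatic cell that surrounds the ovulated egg, into an enucleated BDF1 oocyte. NTM embryos received the nucleus of a mouse embryonic fibroblast (MEF) grown from BDF1 fetuses, passaged and serum-starved, in place of that of a CC. All NT embryos were exposed to cytochalasin B, activated with strontium, treated with the histone deacetylase inhibitor Scriptaid and cultured in G1 and then G2 medium. The in vivo embryos were not, and their eggs came from C57BL/6 rather than BDF1 females. Treatment, culture and strain of the egg thus cannot be told apart from the transfer of the nucleus. The CCs came from females, so all NTC nuclei were female, while in vivo and NTM embryos could be of either sex. Embryos were picked by their morphology, and embryos that did not meet those criteria were not sampled. The paper describes 3 biological replicates per group. Which collection of embryos gave which library is not stated, and p-values measure the spread between these libraries.

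H3K4 trimethylation marks the promoters of active genes and monomethylation marks enhancers. Setd1a and Setd1b carry most trimethylation at active promoters, Kmt2a (MLL1) and Kmt2b (MLL2) act at selected promoters, and Kmt2c (MLL3) and Kmt2d (MLL4) monomethylate enhancers. All work in complexes with the shared subunits Wdr5, Rbbp5, Ash2l and Dpy30. Kdm5a and Kdm5b (JARID1A and JARID1B) remove trimethyl and dimethyl groups, and Kdm1a (LSD1) removes dimethyl and monomethyl groups with the CoREST complex. The mouse egg carries broad non-canonical H3K4 trimethylation, laid down by Kmt2b, which is removed around zygotic genome activation with the help of Kdm5a and Kdm5b.

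In GENCODE M21 (GRCm38), all 9 are protein-coding genes. Setd1a lies at chr7:127776670-127800122 on the plus strand, Kdm5b at chr1:134560171-134635285 on the plus strand and Kmt2c at chr5:25271798-25498783 on the minus strand. Kdm5a lies at chr6:120364124-120444574 and Setd1b at chr5:123142193-123168629, both on the plus strand. Kmt2a (chr9:44803355-44881296), Kmt2b (chr7:30568858-30588726), Kmt2d (chr15:98831669-98871204) and Kdm1a (chr4:136550540-136602723) are on the minus strand. The exons of Setd1a share 51.85% of their length with the same-strand gene Gm49388, which was not analysed here, so reads of these genes may have been split or dropped in counting. Overlaps of Kmt2a, Kmt2c, Kdm5a and Setd1a with genes on the opposite strand covered at most 2.27% of their exons, and whether counting used strand is not given in the sources used here.

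RefSeq (GRCm38.p6) promoter windows, from 250 bases before to 50 after the start, were held for 6 of the 9 genes. The windows of Setd1a and Kdm5b, the 2 members whose in vivo 4-cell libraries overlapped those of no other group, and of Kmt2c, the most abundant member, are printed 5′ to 3′ on the strand of the gene, with every CG dinucleotide in capitals. Setd1a spans chr7:127777139-127777438, which lies within the longer GENCODE gene, Kdm5b chr1:134559928-134560227 and Kmt2c chr5:25498734-25499033.
Setd1a: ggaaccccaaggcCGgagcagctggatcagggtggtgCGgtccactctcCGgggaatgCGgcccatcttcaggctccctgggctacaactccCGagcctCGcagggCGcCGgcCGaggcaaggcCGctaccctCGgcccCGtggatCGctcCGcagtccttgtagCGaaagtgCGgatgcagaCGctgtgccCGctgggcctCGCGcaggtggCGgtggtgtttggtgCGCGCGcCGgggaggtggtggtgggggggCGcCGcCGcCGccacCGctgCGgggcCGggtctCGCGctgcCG
Kdm5b: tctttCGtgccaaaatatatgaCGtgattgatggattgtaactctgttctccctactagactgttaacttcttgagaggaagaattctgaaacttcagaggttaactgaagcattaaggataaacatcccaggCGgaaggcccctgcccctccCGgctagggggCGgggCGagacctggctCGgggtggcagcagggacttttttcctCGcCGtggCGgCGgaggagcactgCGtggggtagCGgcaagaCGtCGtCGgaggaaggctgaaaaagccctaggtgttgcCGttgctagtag
Kmt2c: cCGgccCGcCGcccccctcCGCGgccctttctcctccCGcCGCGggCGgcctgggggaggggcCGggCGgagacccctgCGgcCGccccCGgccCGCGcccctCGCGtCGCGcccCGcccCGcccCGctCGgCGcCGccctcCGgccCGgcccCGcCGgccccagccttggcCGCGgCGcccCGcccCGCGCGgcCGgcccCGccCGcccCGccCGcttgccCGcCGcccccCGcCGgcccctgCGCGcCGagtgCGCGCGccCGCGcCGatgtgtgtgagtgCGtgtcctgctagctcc
Kmt2c held 56 CG dinucleotides in 300 bases, more than 99.8% of the 32851 mouse promoter windows. Setd1a held 35 and Kdm5b held 17, more than 93.0% and 68.6% of the windows. Kmt2a held 36, Kdm1a 29 and Kmt2d 27, and the median over all windows was 7. The GC box GGGCGG, searched on both strands, was found 12 times in Kmt2c, 5 times in Kmt2a, 4 times in Kmt2d, 1 time in Kdm5b and not in Setd1a or Kdm1a, and 35.7% of all windows hold it. The TATA box letters TATAAA, held by 13.6% of windows, were in none of the 6. The ETS core CGGAAG, which can overlap the GC box and is held by 16.9% of windows, was found 1 time, in Kdm5b.

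Values are RPKM, read counts scaled by exon length and by library total, as deposited. Recovered totals ran from 5294166 to 26281212 reads in embryos and from 31557817 to 47829882 in donor cells. At these depths 3 reads correspond to 0.00923 to 0.0834 RPKM for Setd1a, in the deepest and the shallowest library, and to 0.00376 to 0.0340 RPKM for Kmt2a, for counting error alone and without molecular identifiers. The 3 in vivo 4-cell libraries stood apart from later in vivo and from NT 4-cell libraries. Mitochondrial genes took 5.68 to 8.87% of their reads against 29.6 to 40.4% in NT 4-cell and 32.1 to 45.1% in in vivo 8-cell libraries, and 13576 to 13932 genes were above 0 against 8997 to 11929 in NT 4-cell libraries. These values moved with the 4-cell differences given here, and their part in them was not tested beyond the fits on nuclear reads alone. At the blastula stage 7730 to 7808 genes were above 0 in the in vivo libraries and 11498 to 13568 in the NT libraries, and Kmt2c, Setd1b and Kdm5a differed widely among the 3 in vivo libraries. Summed fibroblast markers were 8918 to 11670 RPKM in MEFs and 4.9 to 6.5 in CCs. Summed cumulus markers were 1198 to 1382 in CCs with Has2 and Lhcgr at 0, but also 523 to 1239 in MEFs.

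Kmt2c was the most abundant of the 9 per unit length. It was highest in 37 of 60 libraries, with a median of 12.9 RPKM, followed by Kdm5b in 14, Kdm1a in 5 and Kdm5a in 4 libraries. The plot of every library shows the patterns over development. Kmt2b, Kmt2c, Kmt2d and Kdm1a had their highest embryo levels at the 1-cell or 2-cell stage. Kdm5a in all 3 kinds of embryo, and Kdm5b in in vivo embryos, had their highest mean at the 4-cell stage. Setd1a did so in in vivo embryos (5.46 RPKM) and, at a lower level, in NTM embryos (0.741 RPKM). Kmt2a was near 0 in in vivo embryos until the blastula.

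**Figure D1:**
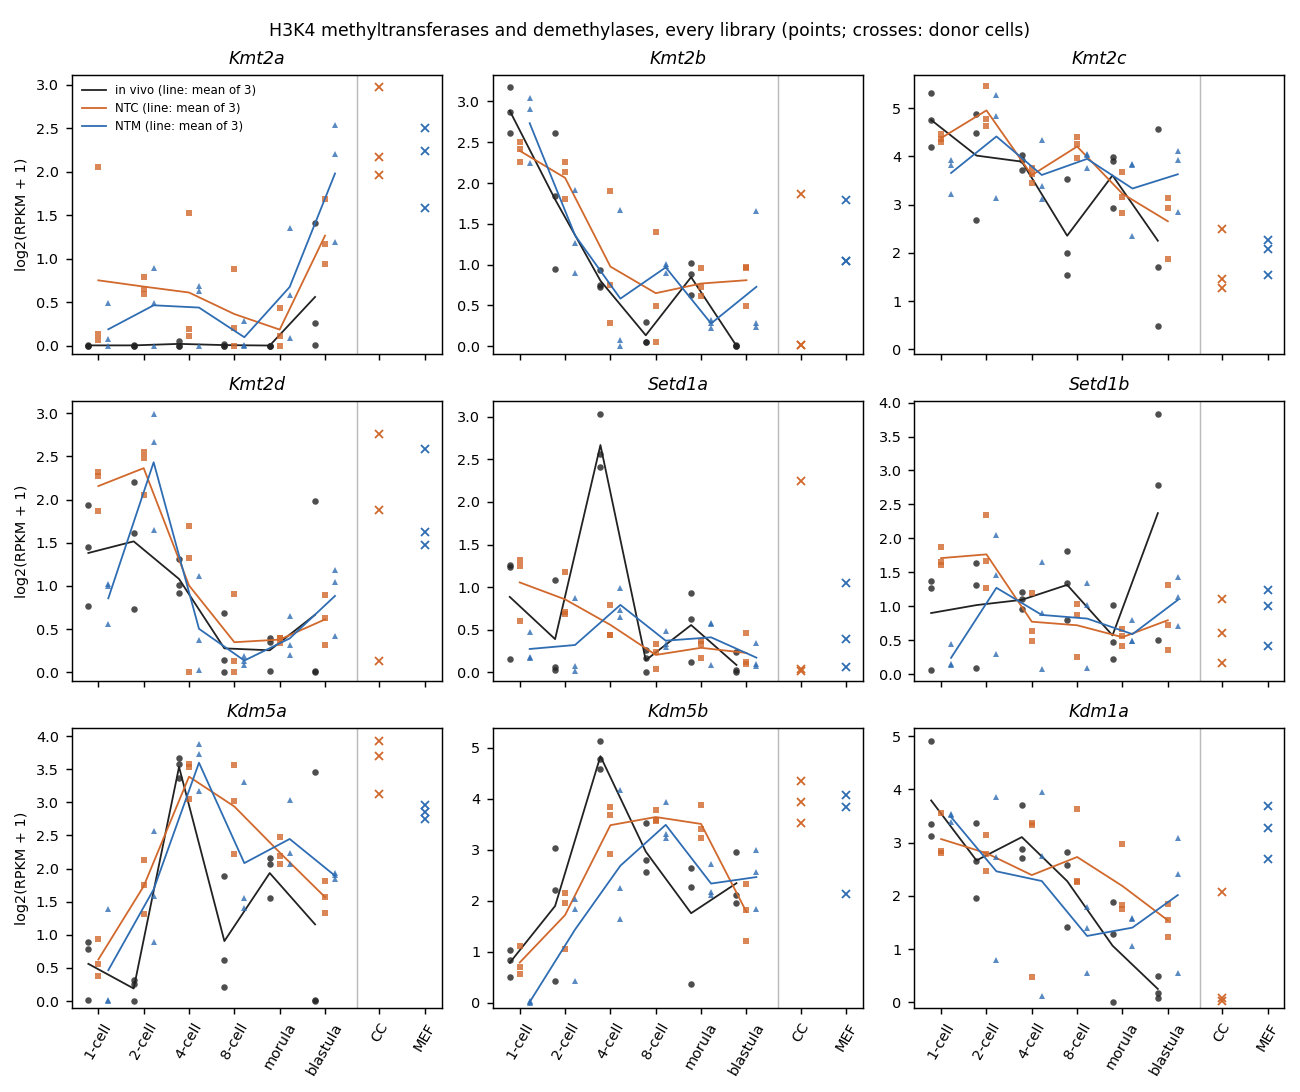
Level of each gene, log2(RPKM + 1), in every library by stage, for in vivo, NTC and NTM embryos (points, with lines through the means of 3) and for the donor cells CC and MEF (crosses). Setd1a in the in vivo 4-cell libraries, at 4.32 to 7.16 RPKM, sits above all 51 other embryo libraries, whose highest value is 1.50.

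Among the MLL1/2 pair, Kmt2a was almost undetected in in vivo embryos before the blastula. From the 1-cell stage to the morula it was above 0 in 4 of 15 in vivo libraries, with 13 reads in all and a highest value of 0.0403 RPKM. The same stages held 1849 reads in NTC embryos, with 13 of 15 libraries above 0 and a highest value of 3.14 RPKM. In NTM embryos they held 1400 reads, with 11 of 15 libraries above 0 and a highest value of 1.56 RPKM. The embryo types overlapped, since 6 of the 30 NT libraries were also at 0. Kmt2a missed the filter on low values in most embryo comparisons, and without that filter no comparison of NT with in vivo embryos was called for it. CC libraries stood at 3.50, 2.90 and 6.82 RPKM and MEF libraries at 4.68, 2.00 and 3.71 RPKM. By the blastula, Kmt2a stood at 0.910 to 4.82 RPKM in the 6 NT libraries and at 0.195, 1.66 and 0.00522 RPKM in the 3 in vivo libraries.

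Kmt2b, the MLL2 enzyme of the growing oocyte, was highest at the 1-cell stage. The in vivo 1-cell libraries stood at 5.12, 6.32 and 8.01 RPKM, NTM at 6.49, 3.74 and 7.27, and NTC at 4.35, 3.80 and 4.67. Its order of means ran from in vivo 1-cell (6.48 ± 1.45 RPKM, SD, n = 3) to NTM 1-cell (5.84 ± 1.85) and NTC 1-cell (4.27 ± 0.439), and these neighbours overlapped. In the 27 libraries from the 8-cell stage to the blastula it ranged from 0 to 2.17 RPKM with a median of 0.410. No single stage step was called for Kmt2b.

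Of the MLL3/4 pair, Kmt2c was detected in every library, at 0.408 to 42.7 RPKM in embryos and 1.43 to 4.65 RPKM in donor cells. The NTC 2-cell libraries stood at 26.5, 42.7 and 23.7 RPKM and the NTC 4-cell libraries at 9.95, 11.4 and 12.5. The NTC 2-cell mean was the highest of the 20 groups (31.0 ± 10.2 RPKM, SD, n = 3), and overlapped the next, in vivo 1-cell (27.4 ± 10.8). Kmt2d was lower, with a median of 0.678 RPKM over the 54 embryo libraries and a highest value of 6.94. Its highest means were at the 2-cell stage of NTM (4.80 ± 2.45 RPKM) and NTC (4.21 ± 0.929), which overlapped. In the in vivo blastula the 3 libraries of Kmt2c differed widely, at 0.408, 2.25 and 22.7 RPKM.

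Of the SET1 pair, Setd1a was low outside the in vivo 4-cell stage. The in vivo libraries stood at 1.11, 0.0212 and 0.0445 RPKM at the 2-cell stage, at 7.16, 4.32 and 4.91 at the 4-cell stage, and at 0.195, 0.128 and 0 at the 8-cell stage. All 3 in vivo 4-cell libraries were above every other embryo library and above the 6 donor libraries, the highest of which was a CC library at 3.73 RPKM. At the 4-cell stage the NTC libraries stood at 0.355, 0.360 and 0.732 RPKM and the NTM libraries at 0.567, 0.994 and 0.662. The NTC and NTM libraries overlapped each other and did not overlap the in vivo libraries, as for 43.9% (NTC) and 41.1% (NTM) of all genes. Setd1b showed no such 4-cell level, with in vivo libraries at 1.31, 0.951 and 1.16 RPKM. Its highest mean was that of the in vivo blastula, where the libraries stood at 5.88, 0.416 and 13.2 RPKM and overlapped the other groups.

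Of the KDM5 demethylases, Kdm5a was near 0 in in vivo 2-cell embryos and at 7.25 to 13.8 RPKM in the 9 4-cell libraries, a range that overlapped CCs and lay above MEFs (5.74, 6.78 and 6.24 RPKM). The in vivo libraries stood at 0.190, 0 and 0.248 RPKM at the 2-cell stage, at 11.7, 9.27 and 10.9 at the 4-cell stage, and at 0.153, 2.71 and 0.536 at the 8-cell stage. The NTC libraries went from 1.49, 3.39 and 2.36 RPKM at the 2-cell stage to 10.98, 7.25 and 10.6 at the 4-cell stage, and the NTM libraries from 4.94, 0.862 and 2.01 to 8.02, 12.3 and 13.8. In the order of means NTM 4-cell (11.4 ± 2.99 RPKM, SD, n = 3), CC (11.3 ± 3.29), in vivo 4-cell (10.6 ± 1.23) and NTC 4-cell (9.60 ± 2.04) came first, and each overlapped the next.

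Kdm5b had its highest level in in vivo 4-cell embryos. The in vivo libraries stood at 0.344, 3.66 and 7.24 RPKM at the 2-cell stage, at 26.5, 34.0 and 23.1 at the 4-cell stage, and at 10.5, 5.96 and 4.92 at the 8-cell stage. At the 4-cell stage the NTC libraries stood at 13.3, 6.57 and 11.9 RPKM and the NTM libraries at 2.13, 3.74 and 17.0. The in vivo 4-cell libraries were above the libraries of every other group, the next mean being that of CCs (14.7 ± 4.41 RPKM, SD, n = 3). Kdm1a was highest in in vivo 1-cell embryos, at 29.1, 9.18 and 7.74 RPKM, and overlapped the next group, NTM 1-cell, at 10.6, 10.5 and 9.46. In the in vivo blastula it stood at 0.0615, 0.135 and 0.404 RPKM, and in CCs at 0.0568, 0.0122 and 3.22.

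The stage steps were tested to ask when the enzymes change. Tests were made with limma on log2(RPKM + 1), a scale that understates the change of low genes, and p-values were adjusted by Benjamini-Hochberg over all genes tested. A gene was called where its adjusted p was below 0.05 and its change was 1 or more on the log2 scale. In in vivo embryos passing from 2 to 4 cells, 3 of the 8 genes tested rose and 0 fell, while 52.2% of all genes were called and 31.4% rose. Kdm5a rose by 3.34 on the log2 scale (SE 0.333, adjusted p = 0.000197), and its mean RPKM was 72.9-fold higher (48.6 to 112-fold without any 1 library). Kdm5b rose by 2.94 (SE 0.667, adjusted p = 0.00827), a 7.44-fold higher mean (5.12 to 13.9-fold without any 1 library). Setd1a rose by 2.28 (SE 0.433, adjusted p = 0.00373), a 13.9-fold higher mean (9.43 to 166-fold without any 1 library, the highest without in vivo 2-cell library 1). Most in vivo 2-cell values of Setd1a and Kdm5a were near 0, so the size of their folds is uncertain. All 3 genes were called under all 7 alternative settings, of which dropping the fold change threshold cannot end a call, and without any 1 library. The median change of the 8 genes was 0.26 against 0.36 over all genes, and the genes not called ranged from -0.997 (Kmt2b) to 0.44 (Kdm1a). In bulk embryos fewer cells of a type and less RNA per cell cannot be told apart.

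The same 3 genes fell between the 4-cell and 8-cell stages of in vivo embryos, out of 7 tested, while 43.7% of all genes were called and 39.3% fell. Setd1a fell by 2.52 on the log2 scale (SE 0.375, adjusted p = 0.00139), Kdm5a by 2.63 (SE 0.505, adjusted p = 0.00450) and Kdm5b by 1.87 (SE 0.384, adjusted p = 0.00602). The median over all genes was -1.05, and relative to it the changes were -1.48, -1.58 and -0.82. With the libraries scaled by their median ratio, Setd1a was still called, while Kdm5a had a log2 change of -1.61 (adjusted p = 0.0736) and Kdm5b of -0.55 (adjusted p = 0.257). Kmt2c had a log2 change of -1.54 (adjusted p = 0.0505) and was not called. Of the other in vivo steps, from the 1-cell to the 2-cell stage, from the 8-cell stage to the morula and from the morula to the blastula, none gave a called member, and 0%, 0.0116% and 0.801% of all genes were called.

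In NTC embryos, 2 of 9 genes rose and 1 fell from the 2-cell to the 4-cell stage, while 36.6% of all genes were called, 16.4% higher and 20.1% lower. Kdm5a rose by 1.65 on the log2 scale (SE 0.467, adjusted p = 0.0239) and Kdm5b by 1.76 (SE 0.519, adjusted p = 0.0281). Kmt2c fell by 1.34 (SE 0.413, adjusted p = 0.0333). Setd1a changed by -0.30 (adjusted p = 0.628) and was not called. Leaving out NTC 2-cell library 3 or NTC 4-cell library 1 or 3 ended the calls of Kdm5a and Kdm5b, as did NTC 2-cell library 1 for Kdm5a and library 2 for Kdm5b, with changes of 1.44 to 1.66 for Kdm5a and 1.43 to 1.89 for Kdm5b. For Kmt2c the call ended without any 1 library except NTC 2-cell library 3, with changes of -1.43 to -1.09, with nuclear reads alone (-0.996) and with 1 fit over all 20 groups. Kdm5b also fell by 1.73 from the NTC morula to the blastula (adjusted p = 0.0451), where 7.16% of all genes were called. Without any 1 of those libraries except NTC blastula library 3 it was not called, at -1.87 to -1.44, nor with any alternative but median-ratio scaling and no fold change threshold. The other NTC steps gave no called member, with 13.5% (1-cell to 2-cell), 0.0564% (4-cell to 8-cell) and 0% (8-cell to morula) of all genes called.

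In NTM embryos no member was called at any of the 5 stage steps in limma, and 7 of 36 tests had an unadjusted p under 0.05. At these steps, in order of development, 9.4%, 26.4%, 0.363%, 0% and 4.22% of all genes were called. The largest member changes at the step to the 4-cell stage were 1.91 for Kdm5a (SE 0.677, adjusted p = 0.0690) and -1.93 for Kmt2d (SE 0.674, adjusted p = 0.0663), and neither pair of groups overlapped, as for 43.9% of all genes. Fitting all 20 groups together gave 4 calls over these steps.

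Whether NT and in vivo embryos differed in a stage step was tested as the difference of the steps itself. For the step from the 2-cell to the 4-cell stage, Setd1a changed less in NTC than in in vivo embryos by 2.58 on the log2 scale (difference -2.575, SE 0.582, adjusted p = 0.0107), and was the only member called of 8 tested, with 14.3% of all genes called. This held under all 7 alternatives, of which dropping the fold change threshold could not end it, and without any 1 of the 12 libraries. The difference for Setd1a in NTM embryos was -1.81 (SE 0.640, adjusted p = 0.101) and that for Kdm5a in NTC embryos -1.69 (SE 0.541, adjusted p = 0.0558), and neither was called, with 9.91% of all genes called in NTM embryos.

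From the 4-cell to the 8-cell stage the steps differed for Setd1a, Kdm5b and Kmt2c in NTC embryos, 3 of 8 members with 19.5% of all genes called. The change was more negative in in vivo embryos, with differences of 2.17 for Setd1a (SE 0.541, adjusted p = 0.0133), 2.03 for Kdm5b (SE 0.581, adjusted p = 0.0264) and 2.13 for Kmt2c (SE 0.684, adjusted p = 0.0443). In NTM embryos the steps differed for Setd1a by 2.10 (SE 0.536, adjusted p = 0.0164) and for Kdm5b by 2.67 (SE 0.842, adjusted p = 0.0426), 2 of 7 members with 18.7% of all genes called. With median-ratio scaling none of these 5 was called, and the values were 1.61, 1.07, 1.25, 1.47 and 1.77 in the order given. With nuclear reads alone Setd1a in NTC embryos was the 1 of these 5 that was called, and with a pseudocount of 0.1 it was not (3.601). For Kmt2c in NTC embryos every library but in vivo 8-cell library 1, and for Kdm5b in NTM embryos every library but in vivo 8-cell library 1 and NTM 4-cell library 3, ended the call when left out (1.72 to 2.25 and 2.15 to 2.81). For Kdm5b in NTC embryos in vivo 4-cell libraries 1 and 2, in vivo 8-cell libraries 2 and 3 and NTC 4-cell library 2 each did so (1.75 to 2.06). No member differed at the other steps in limma, where 0.0256%, 0% and 0.236% of all genes were called for NTC and 0.204%, 0.0335% and 0.647% for NTM embryos, in order of development, and 15 of all 73 member tests of these differences had an unadjusted p under 0.05.

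**Figure D2:**
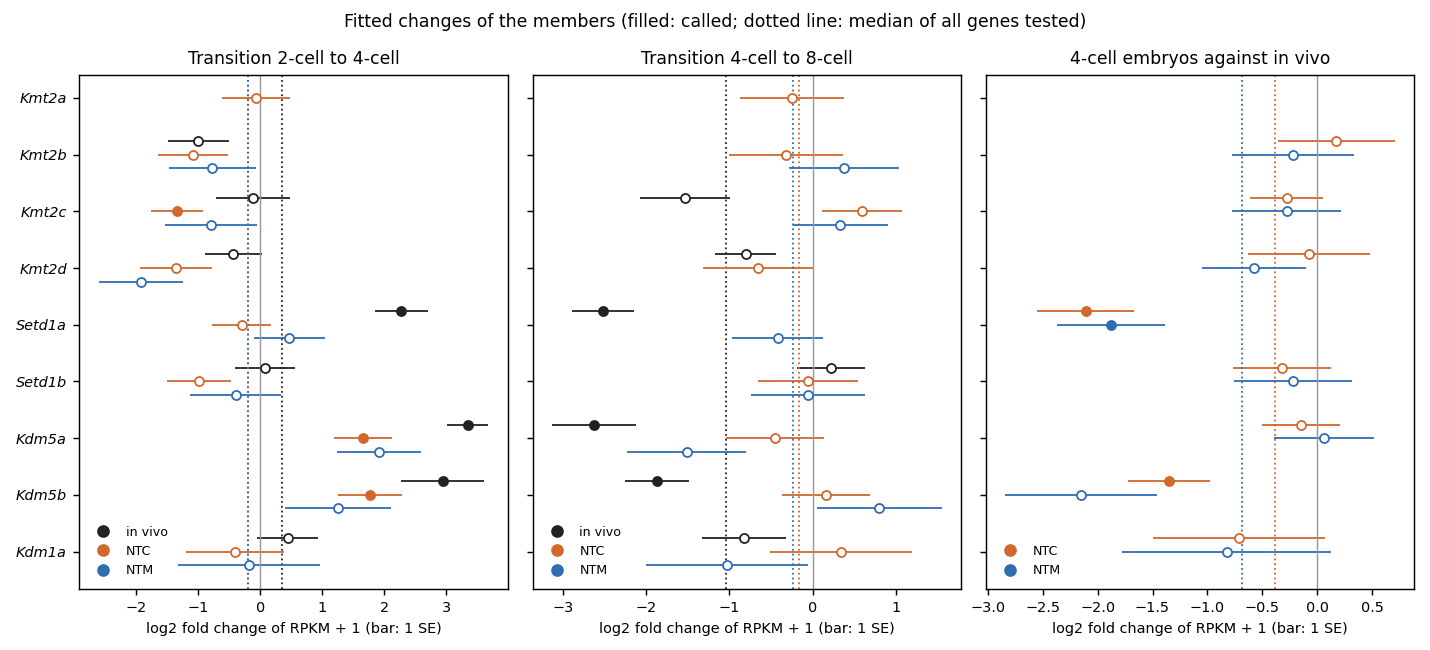
Fitted log2 fold change of RPKM + 1 for each gene, with 1 SE, in the steps and comparisons around the 4-cell stage (filled points: called). Setd1a stands at 2.28 for the in vivo step to the 4-cell stage and at -2.11 (NTC) and -1.87 (NTM) against in vivo 4-cell embryos, away from the dotted median of all genes.

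Comparing NT with in vivo embryos of the same stage asks which enzymes differ after nuclear transfer. At the 4-cell stage Setd1a was lower in both kinds of NT embryo. Its mean was 11.3-fold lower in NTC embryos (log2 change -2.11, SE 0.443, adjusted p = 0.00795), with 2 of 8 members lower, 27.8% of all genes called and 20.4% lower. It was 7.37-fold lower in NTM embryos (log2 change -1.87, SE 0.491, adjusted p = 0.0311), the 1 call among 8 members, with 21.1% of all genes called and 17.8% lower. Setd1a was lower than in every in vivo library in 6 of 6 NT libraries, while 43.9% (NTC) and 41.1% (NTM) of all genes did not overlap between the groups. The median over all genes was -0.39 in NTC and -0.69 in NTM embryos, relative to which Setd1a stood at -1.72 and -1.19. The NTC call held under all alternatives and without any 1 library. The NTM call ended without in vivo 4-cell library 1, 2 or 3 or NTM 4-cell library 1 (-2.00 to -1.69), without the filter on low values, with median-ratio scaling (-1.33) and with nuclear reads alone (-1.67).

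Kdm5b was also lower in NTC 4-cell embryos, by 1.35 on the log2 scale (SE 0.374, adjusted p = 0.0267). Its mean was 2.63-fold lower and the libraries did not overlap, as for 43.9% of all genes. The call ended without in vivo 4-cell library 1, 2 or 3 or NTC 4-cell library 2 (-1.47 to -1.07), with median-ratio scaling (-0.91) with nuclear reads alone (-0.92) and with 1 fit over all 20 groups. In NTM embryos the Kdm5b change was -2.15 (SE 0.691, adjusted p = 0.0614), not called although the libraries did not overlap, as for 41.1% of all genes. Kdm5a differed little, at -0.15 (SE 0.358, adjusted p = 0.777) in NTC and 0.06 (SE 0.455, adjusted p = 0.929) in NTM embryos.

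The mean of NTC and NTM embryos was set against in vivo embryos as a further comparison, which shares its libraries with those above. At the 4-cell stage Setd1a was lower by 1.99 on the log2 scale (SE 0.405, adjusted p = 0.00418) and Kdm5b by 1.75 (SE 0.557, adjusted p = 0.0393), 2 of 8 members with 26.6% of all genes called and 21.6% lower. Setd1a was called under every alternative and without any 1 of the 9 libraries. Kdm5b was called without NTM 4-cell library 3 but not with any 1 of the other 8 left out (-1.87 to -1.49), and it was not called with a pseudocount of 0.1, without the filter, with median-ratio scaling (-1.22) or with nuclear reads alone (-1.33). At the 5 other stages no member was called in limma in any comparison of NT with in vivo embryos. At the 1-cell, 2-cell, 8-cell, morula and blastula stages 1.16%, 0.152%, 1.46%, 0.0321% and 9.46% of all genes were called in NTC embryos. For NTM embryos these shares were 1.28%, 0.141%, 2.02%, 0.168% and 0.746%, and for the mean of both 3.82%, 0.338%, 3.61%, 0.693% and 18.5%. Over all 6 stages, 7 of 42 NTC tests and 5 of 41 NTM tests had an unadjusted p below 0.05.

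NTM and NTC embryos were compared stage by stage to ask whether the donor nucleus left a difference. The mix of embryo sexes also differed. At the 4-cell stage 4 summed Y-linked markers stood at 0.0202 to 0.0674 RPKM in NTC libraries. They stood at 52.3, 0.0658 and 46.2 in NTM and at 29.1, 41.9 and 0.0346 in in vivo libraries. The part of embryo sex in the member differences was not tested. At the 1-cell stage Kmt2d and Setd1b were lower in NTM embryos, 2 of 8 members with 19.8% of all genes called and 14.2% lower. The NTC libraries stood at 4.00, 2.66 and 3.84 RPKM for Kmt2d and the NTM libraries at 0.469, 1.03 and 0.993, a 4.21-fold lower mean (log2 change -1.30, SE 0.346, adjusted p = 0.0269). For Setd1b the NTC libraries stood at 2.66, 2.04 and 2.14 RPKM and the NTM libraries at 0.105, 0.364 and 0.0954. Its mean was 12.1-fold lower, or 9.71 to 22.7-fold without any 1 library (log2 change -1.47, SE 0.333, adjusted p = 0.0146). Neither pair of groups overlapped, as for 42.1% of all genes. The 1-cell libraries also differed in 12097 to 12346 genes above 0 in NTM against 14021 to 14270 in NTC, in a mitochondrial share of 2.92 to 4.19% against 4.78 to 6.78%, and in summed maternal oocyte markers of 5572 to 6451 RPKM against 3327 to 3765. None of these overlapped, and their part in the member differences was not tested. The Kmt2d call ended without NTC 1-cell library 1, 2 or 3 or NTM 1-cell library 1 (-1.44 to -1.15), and the Setd1b call without NTC 1-cell library 3 (-1.50). Both ended with 1 fit over all 20 groups, and that of Kmt2d also without the filter on low values. At the 5 later stages no member was called in limma, and over all 6 stages 5 of 44 tests had p-values below 0.05 before adjustment. At the 8-cell stage 0.0507% of all genes were called, and at the other later stages 0%.

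The 1-cell NT embryos were compared with their donor cells to describe how the oocyte and the donor differ. In NTC 1-cell embryos against CCs, Kmt2b, Kmt2c, Setd1b and Kdm1a were higher and Kdm5a and Kdm5b lower, 6 of 9 members with 50% of all genes called, 29.3% higher and 20.8% lower. The mean of Kmt2c was 7.59-fold higher, or 6.19 to 12.4-fold without any 1 library (log2 change 2.63, SE 0.389, adjusted p = 0.00234). Kdm5a was lower by 2.95 on the log2 scale (SE 0.330, adjusted p = 0.000753) and Kdm5b by 3.15 (difference -3.145, SE 0.331, adjusted p = 0.000587). The CC libraries stood at 7.71, 11.96 and 14.2 RPKM for Kdm5a and the NTC 1-cell libraries at 0.300, 0.918 and 0.477. The calls of Kmt2b (1.77), Setd1b (1.09) and Kdm1a (2.34) each ended without any 1 of the 6 libraries but CC library 3, at 1.45 to 2.38, 0.85 to 1.33 and 1.99 to 3.02 over all 6. The calls of Kmt2b and Setd1b also ended with a pseudocount of 0.1 and without the filter on low values.

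In NTM 1-cell embryos against MEFs, Kmt2b and Kmt2c were higher and Kmt2a, Kdm5a and Kdm5b lower, 5 of 8 members with 55.2% of all genes called, 25.2% higher and 29.9% lower. Kdm5b stood at 0.00853, 0.0163 and 0 RPKM in the NTM libraries and at 3.38, 15.9 and 13.4 in MEFs (log2 change -3.34, SE 0.549, adjusted p = 0.00202). Kmt2a stood at 0.398, 0 and 0.0545 RPKM in the NTM libraries. Its mean was 22.9-fold lower than in MEFs, or 15.3 to 127-fold without any 1 library (log2 change -1.92, SE 0.387, adjusted p = 0.00510). Kmt2b was higher by 1.44 and Kmt2c by 1.69, and the Kmt2b call ended without NTM 1-cell library 1 (1.36) or 3 (1.29). By the blastula, Kdm5a was lower by 2.01 and Kdm5b by 2.15 in NTC embryos than in CCs, with 24.2% of all genes called, and Kmt2c was higher by 1.67 in NTM embryos than in MEFs, with 30.8% called. The NTC blastula calls ended without NTC blastula library 1 or 2 (-2.02 to -1.89 and -2.17 to -1.86), and the NTM blastula call without any 1 library but NTM blastula library 3 (1.43 to 1.82). Between MEFs and CCs no member was called in limma, with 6.29% of all genes called, and the largest difference was that of Kdm1a, at 5.43, 11.9 and 8.63 RPKM in MEFs against 0.0568, 0.0122 and 3.22 in CCs (log2 change 2.49, SE 0.822, adjusted p = 0.140).

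Partner genes were taken from 8 lists of 48 genes, 47 of them in the table. The lists hold subunits and readers that act with these enzymes, and also other H3K4 methyltransferases, their relatives and other H3K4 demethylases. At the same in vivo step to the 4-cell stage, 7 of 41 tested rose and 10 fell, beside 31.4% and 20.8% of all genes. The scaffold subunit Ash2l rose by 2.22 on the log2 scale, the SET1 complex subunit Hcfc1 by 2.85 and the CoREST deacetylase Hdac1 by 6.62. The SET1 complex subunits Wdr82 and Bod1 fell by 3.91 and 3.83, the MLL1 partner Psip1 by 4.65, and the MLL3/4 complex subunits Ncoa6 and Kdm6a by 2.77 and 2.93. Of the SET1 complex list, 1 of 5 thus rose and 2 fell at the step where Setd1a rose. The median change of the 41 genes was -0.06 against 0.36 over all genes. Over the same step 5 of 40 rose and 10 fell in NTC embryos, beside 16.4% and 20.1% of all genes, and 3 of 38 rose and 6 fell in NTM embryos, beside 12.1% and 14.3%. Psip1 fell there by 3.24 in NTC and 6.33 in NTM embryos, and the H3K4 reader Spin1 by 5.36 and 6.01, beside 5.34 in in vivo embryos. Hdac1 rose by 2.92 in NTC embryos.

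At the in vivo step to the 8-cell stage, 2 of 37 partner genes rose and 14 fell, beside the 4.4% of all genes that rose and the 39.3% that fell. Hdac2 and the CoREST scaffold Rcor2 rose by 2.41 and 2.01 on the log2 scale. Hdac1 fell by 3.01, Hcfc1 by 3.03, Ash2l by 1.87 and Cxxc1, the SET1 subunit that binds unmethylated CpG, by 1.94. With median-ratio scaling Ash2l and Cxxc1 were not called.

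At the 4-cell stage, 4 of 38 tested partner genes were higher and 4 lower in the mean of NT than in in vivo embryos, beside 5% and 21.6% of all genes. Hdac1 stood at 267, 242 and 241 RPKM in in vivo, at 52.2, 32.9 and 36.2 in NTC and at 15.4, 38.1 and 95.9 in NTM libraries, and was lower by 2.64 on the log2 scale. Its paralogue Hdac2 was higher by 2.53, at 11.1, 13.2 and 10.7 RPKM in in vivo, 146, 94.2 and 78.8 in NTC and 28.6, 51.3 and 85.9 in NTM libraries. No NT library overlapped the in vivo libraries for either gene, while 43.9% (NTC) and 41.1% (NTM) of all genes did not overlap.

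Wdr82, the subunit that ties SET1 enzymes to RNA polymerase II, was higher by 2.41, at 3.65, 3.08 and 1.86 RPKM in in vivo, 13.1, 20.4 and 40.3 in NTC and 13.5, 20.3 and 16.4 in NTM libraries. Hcfc1 was lower by 1.96, at 11.8, 12.1 and 17.7 RPKM in in vivo, 2.66, 2.10 and 2.31 in NTC and 1.22, 1.65 and 11.8 in NTM libraries. Wdr82 was thus higher in every NT library than in every in vivo library, while an NTM library of Hcfc1 overlapped the lowest in vivo library. Of all genes, 43.9% (NTC) and 41.1% (NTM) did not overlap the in vivo libraries. Riox2 (-2.08) and Kdm1b (-1.92), a demethylase of the oocyte, were also lower, and the reader Ing2 (2.95) and Bod1 (1.33) were higher. The Bod1 call ended without any 1 of the 9 libraries but NTM 4-cell libraries 2 and 3 (0.91 to 1.55 over all 9), and the Hcfc1 call without any in vivo library or NTC 4-cell library 2 or 3 (-2.36 to -1.73). The Kdm1b call ended without in vivo 4-cell library 1 or 2 (-2.22 to -1.61) and the Riox2 call without in vivo 4-cell library 1 (-2.23 to -1.85).

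**Figure D3:**
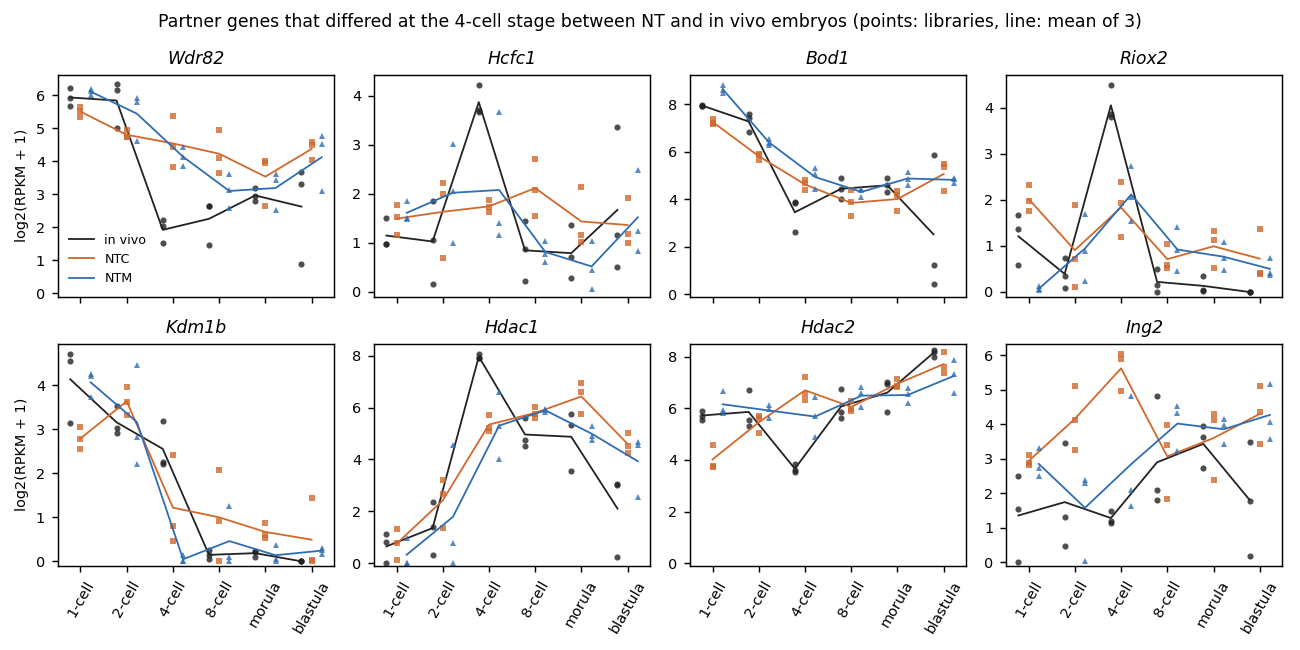
Level, log2(RPKM + 1), of the partner genes called between NT and in vivo embryos at the 4-cell stage, in every embryo library by stage (points, with lines through the means of 3). In vivo 4-cell libraries of Hdac1 stand at 241 to 267 RPKM and those of Hdac2 at 10.7 to 13.2, on opposite sides of the NT libraries.

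The balance of the 9 transcripts was described by the share of the demethylases in their summed RPKM. In in vivo embryos it was 30.8 ± 22.1% at the 1-cell stage, 32.9 ± 24.4% at the 2-cell stage and 67.4 ± 4.4% at the 4-cell stage (SD, n = 3). It then stood at 65.2 ± 16.4% at the 8-cell stage, 32.0 ± 9.6% in the morula and 38.5 ± 25.6% in the blastula, where the libraries had 66.6%, 32.2% and 16.6%. In NTC embryos the mean shares were 21.7%, 20.5%, 62.6%, 55.3%, 63.5% and 42.8% from the 1-cell stage to the blastula, and in NTM embryos 36.6%, 26.8%, 59.8%, 48.0%, 47.4% and 38.0%. CCs and MEFs had 70.3% and 65.8%. In all 3 kinds of embryo the mean share was higher at the 4-cell than at the 2-cell stage, a description for which no test was run.

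**Figure D4:**
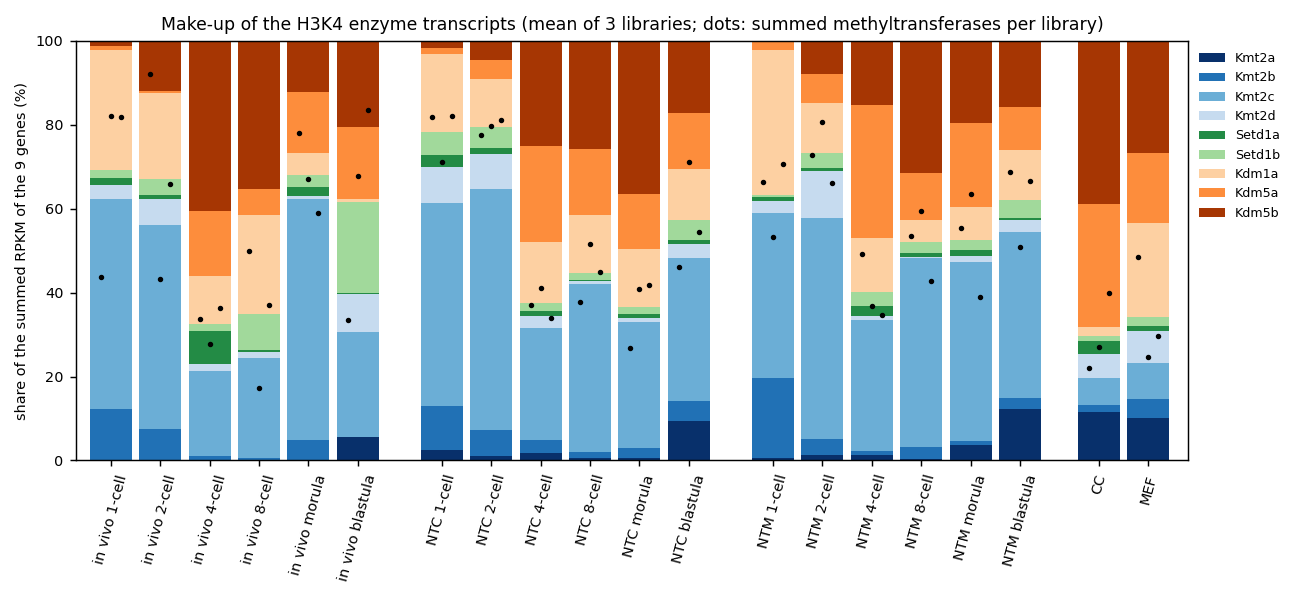
Mean share of each gene in the summed RPKM of the 9 genes, in percent, by group (stacked bars, mean of 3 libraries), with dots for the summed methyltransferases of each library. The demethylases take 67.4% in in vivo 4-cell embryos against 32.9% in in vivo 2-cell embryos.

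Likeness of pattern was measured as Pearson's r of group means on the log2 scale over the 20 groups, among 12551 genes, as a description over points that share oocyte source, donor and depth. The part of any 1 group in r, such as the in vivo 4-cell group for Setd1a, was not tested. For Setd1a the most alike genes were Gadd45gip1 (r = 0.926, Spearman's rho 0.441), Tbc1d25 (0.919, rho 0.605) and Idnk (0.910, rho 0.582). For Kdm5b they were Kdm4c (0.905), Impdh2 (0.900) and Spns1 (0.898), for Kdm5a Pim3 (0.902), Rrnad1 (0.894) and Phrf1 (0.890), and for Kdm1a Anapc16 (0.869), Dnaja2 (0.854) and Plpp1 (0.848). For Kmt2a they were Cgrrf1 (0.922) and Tdg (0.916), and for Kmt2b Riok1 (0.945), Slc7a11 (0.944) and Pptc7 (0.942). For Kmt2c they were Casp8ap2 (0.894), Arid1a (0.887) and Lin28a (0.881), for Kmt2d Zdhhc5 (0.950), Wasf2 (0.935) and Nudcd3 (0.925), and for Setd1b Fam81a (0.804), Upp1 (0.793) and Ccdc88c (0.772). Among the 9 genes themselves, r was highest for Kdm5a with Kdm5b (0.779) and Kmt2b with Kdm1a (0.720), and lowest for Kmt2b with Kdm5b (-0.675).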

How the data were processed

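Poly(A) RNA of single embryos and donor cells was amplified and sequenced as paired ends, without molecular identifiers. The authors deposited 1 table of RPKM values, made per their methods with TopHat and HTSeq. The submitters' processing notes name Bowtie 0.12.2 and mm8. Gene lengths of GENCODE M21 (GRCm38) turned 100% of the RPKM values of every member but Kmt2d into whole reads. The tolerance was 0.02 reads and widened with the read count, so values of many reads pass more easily. The Kmt2d length, 19884 bases, was found from the steps of its own values and is no check of the annotation. Spike-in reads were not used here.

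The members and lists were chosen with earlier results of these data known. Genes with a mean of at least 0.5 RPKM in the libraries of a fit were tested as log2(RPKM + 1) with limma 3.58.1 (trend) in R 4.3.3, in 54 comparisons, 10 of them differences of stage steps. Each fit used the libraries it compared. The genes to name were all 9 members, called partner genes (at most the 4 with the largest change per list and comparison) and the 3 genes most like each member with a highest group mean of at least 5 RPKM, of which 1 for Kmt2a is not reported here. The 7 alternatives were a pseudocount of 0.1, no filter, median-ratio scaling, nuclear reads alone, 1 fit over 20 groups, a replicate block and no fold change threshold, and each library was left out in turn. On simulated data for NTC against in vivo 4-cell embryos (11457 genes), 36% of genes changed by 2 on the log2 scale and 73% of those changed by 3 were recovered, with 3 false calls. For in vivo 4-cell against 2-cell embryos (12995 genes) these shares were 16% and 36% (5 false calls), for the mean of NT against in vivo 4-cell embryos (11264 genes) 34% and 60% (11 false calls), and for the NTC difference of the step to the 4-cell stage (13221 genes) 5% and 34% (1 false call). Recovery was not tested for the 9 members or for low genes alone. It was also not tested with as many changed genes as the real comparisons called. No 2 libraries were identical, and Pearson's r within groups was 0.753 to 0.970.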

Additional observations from a re-analysis of the deposited data

Results flagged for a closer look

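6 member results were singled out because a stage step differed between NT and in vivo embryos in the test of the difference itself. From the 2-cell to the 4-cell stage, Setd1a differed between NTC and in vivo embryos by -2.575 on the log2 scale, as the in vivo libraries rose and the NTC libraries did not pass the test. From the 4-cell to the 8-cell stage, Setd1a differed by 2.171 in NTC and by 2.104 in NTM embryos, Kdm5b by 2.031 in NTC and by 2.673 in NTM embryos, and Kmt2c by 2.129 in NTC embryos. The NTC and NTM differences share the in vivo libraries. In the in vivo 4-cell libraries, which enter all 6, the mitochondrial share was 5.68 to 8.87%, against 29.6 to 40.4% in NT 4-cell libraries, and its part in these results was not tested beyond the fits on nuclear reads alone, under which both Setd1a differences in NTC embryos were called.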

How the results depend on the processing

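The number of called member changes depended on the settings more for NT embryos than in the in vivo stage steps, where 6 calls became 4 to 7 under the alternatives and 6 to 7 without any 1 library. For NTC stage steps, 4 calls became 2 with nuclear reads alone, and 1 to 4 without any 1 library. For NTM stage steps, 0 calls became 1 with median-ratio scaling, 1 with nuclear reads and 4 with 1 fit over all groups (0 to 1 without any 1 library). NTC against in vivo went from 2 calls to 1 with median-ratio scaling, 1 with nuclear reads and 3 with 1 fit (1 to 2). NTM against in vivo went from 1 call to 0 without the filter, 0 with median-ratio scaling, 0 with nuclear reads and 3 with 1 fit (0 to 2). The mean of both against in vivo went from 2 calls to 1 without the filter, 1 with median-ratio scaling and 4 with 1 fit (1 to 3). NTM against NTC went from 2 calls to 1 without the filter and 0 with 1 fit (0 to 2). The 14 donor cell calls became 10 to 16 under the alternatives (11 to 14). The 6 differences of stage steps became 1 with median-ratio scaling and 2 with nuclear reads (3 to 7). Dropping the fold change threshold cannot end a call and changed no count, and no member change reversed in sign where it was called. Of the 27 genes selected as most alike, 5 were also among the most alike by Spearman's rho. Of the 37 member calls, 14 held under every alternative and without any 1 library. The cause of these changes was not tested.

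The replicate numbers did not pair the samples, since in no comparison were all 3 correlations of same-numbered libraries over 0.1 (range -0.181 to 0.119). With the replicate block, NTC stage steps had 2 calls, NTC against in vivo 1, NTM against in vivo 0, the mean of both 1 and NTM against NTC 1, and 13 of the 37 member calls were not made. The calls not made included Setd1a in NTM against in vivo 4-cell embryos.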

Other observations

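Kdm5c, the X-linked relative of Kdm5a and Kdm5b, stood at 0.794, 8.15 and 8.45 RPKM in CCs and at 2.89, 6.96 and 3.51 RPKM in MEFs. Its Y-linked paralogue Kdm5d was at 0 in all 6 donor libraries. The summed Y-linked markers, Kdm5d among them, stood at 24.35, 0.0679 and 26.65 RPKM in MEFs and at 0.0156 to 0.0355 in CCs. Kdm5d at 0 thus does not mean that a Y chromosome was absent. In 1-cell embryos Kdm5d stood at 0.0717, 0.0994 and 0.0860 RPKM in NTC and at 0.0280, 0.0625 and 0.0599 RPKM in NTM libraries. The NTC nuclei and oocytes came from females, so the NTC values cannot come from a Y chromosome of these embryos. The Y-linked markers Uty, Ddx3y and Eif2s3y were at 0 in all NTC and NTM 1-cell libraries. In NTM embryos such low values are uncertain for a gene with so similar a paralogue.

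The reader Taf3, a TFIID subunit that binds trimethylated H3K4, stood at 152, 271 and 279 RPKM in NTC 1-cell libraries, at 131, 190 and 268 in in vivo and at 19.9, 30.3 and 27.9 in NTM 1-cell libraries. The NTM libraries were below all NTC and in vivo libraries. Of all genes, 42.1% did not overlap between NTM and NTC and 23.1% between NTM and in vivo 1-cell libraries. The oocyte demethylase Kdm1b stood at 7.23, 4.84 and 5.88 RPKM in NTC and at 12.4, 17.5 and 17.98 in NTM 1-cell libraries. These groups did not overlap, as for 42.1% of all genes.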
